A study of Rattus norvegicus with 18 samples.

Results

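The inhibitory receptor genes described here encode the opioid receptors mu (*Oprm1*), delta (*Oprd1*), kappa (*Oprk1*) and nociceptin (*Oprl1*), the cannabinoid receptor CB1 (*Cnr1*), the α2-adrenergic receptors A and C (*Adra2a*, *Adra2c*), the somatostatin receptor SSTR2 (*Sstr2*) and the neuropeptide Y receptor Y1 (*Npy1r*). They were chosen by symbol under a rule that uses no measured value, although earlier results of these data were known when they were chosen, and these 9 genes held 11 of the 15075 RefSeq rows in the table of mRNA counts. All 9 had a row, 7 had 10 or more reads on average in at least 1 group, and 2 (*Oprd1* and *Sstr2*) were not measurable at this depth.

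These receptors couple to G proteins of the Gi/o class. In sensory neurons the activated G protein inhibits adenylyl cyclase, closes voltage-gated calcium channels at the central terminals and opens potassium channels, so that less transmitter is released into the spinal cord. Opioids, cannabinoids and α2 agonists such as clonidine relieve pain in part through such receptors on dorsal root ganglion (DRG) neurons, and α2 agonists are also used against spasticity.

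The study sequenced poly(A) RNA of cervical DRG (C6-C8) from 18 adult Lister Hooded rats in 3 groups of 6. Naïve rats had no operation and no vector, so injury, vector and surgery cannot be told apart in a comparison with them. Rats of both other groups had bilateral pyramidotomy (bPYX), which cuts the corticospinal tracts in the medulla, and 24 hours later an adeno-associated viral vector in the forelimb flexor muscles of 1 side. The vector was AAV1-CMV-NT3, encoding human neurotrophin-3 (NT3), in bPYX+NT3 rats and AAV1-CMV-EGFP in bPYX+GFP rats. The CMV promoter is not restricted to a cell type, the ganglia were taken 10 weeks after injury, and the ganglia of the treated side of a rat made 1 library. The rats in each library are separate animals.

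The count table and the counts deposited rat by rat do not lead to the same groups. Each heading of the table gives a sample number and a rat number, and the title of the sample with that number names the group. Read in this way, the naïve rats are 41, 42, 43, 44, 45 and 49. The bPYX+GFP rats are 5, 15, 18, 21, 52 and 57, and the bPYX+NT3 rats are 2, 11, 17, 23, 39 and 40. The counts of each rat are also attached to a sample, and are identical to the table column of the same rat. For 17 of the 18 rats the title of that sample names another group. The groups found by the sample numbers of the headings are used here. With them the log2 change of the adipocyte gene *Adipoq* was -2.11 in bPYX+NT3 against bPYX+GFP rats and -1.85 against naïve rats. The study reported the same values for this gene, so its own groups match those of the headings there. Those of the samples to which the counts of each rat are attached are an alternative, called the groups of the titles. No member was called under the groups of the titles, where both *Oprm1* differences turned to the opposite sign.

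Between 10057787 and 16002410 read pairs per rat were counted on genes (median 13038873). The share of read pairs that lay outside annotated exons, called no-feature, was 30.8% in rat 11 (bPYX+NT3) and 31.7% in rat 57 (bPYX+GFP), against 32.5% to 34.6% in the other rats. The group means of this share were 33.6% for naïve, 33.5% for bPYX+GFP and 32.9% for bPYX+NT3 rats, and did not differ beyond the spread between rats (p = 0.288 to 0.859, two-sided exact permutation tests). Markers of DRG neurons were detected in every rat. The summed normalized count of the 6 neuron markers (*Stmn2*, *Tubb3*, *Uchl1*, *Prph*, *Rbfox3* and *Snap25*) was 37190 to 47490 for naïve, 42410 to 54010 for bPYX+GFP and 40710 to 62340 for bPYX+NT3 rats, with *Snap25* near 0. Pairs were counted per RefSeq identifier, and those that fitted several identifiers were left out. A count near 0 therefore need not mean that a gene is not expressed. Of the 6 markers of large-fibre and proprioceptive neurons with a row, *Nefh*, *Spp1*, *Ntrk2* and *Pvalb* had means of 30340, 10250, 4729 and 1455 normalized counts over all rats, and *Runx3* and *Etv1* were at 11 reads or fewer in every rat. None of the 4 that could be tested was called in any comparison, and 0 of the 7 nociceptor markers with a row (of 9 listed) were called in any comparison.

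The comparisons are named by their groups: GFP-naïve sets bPYX+GFP against naïve rats, NT3-naïve sets bPYX+NT3 against naïve rats, and NT3-GFP sets bPYX+NT3 against bPYX+GFP rats. A positive log2 difference means higher in the group named first. Calls are at an unadjusted p under 0.05, the threshold the study used, by edgeR's quasi-likelihood test. The study also used edgeR, and its small RNA results list a likelihood ratio. The likelihood ratio test of edgeR is an alternative here. Over all genes, 3.25% of 11601 were called in the GFP-naïve comparison (0.733% higher and 2.52% lower in bPYX+GFP), 6.01% of 11693 in the NT3-naïve comparison (3.09% higher and 2.92% lower in bPYX+NT3), and 1.73% of 11623 in the NT3-GFP comparison (1.08% higher and 0.654% lower in bPYX+NT3). After Benjamini-Hochberg adjustment 0 genes (0.0%) passed in each comparison, with 377, 703 and 201 genes at an unadjusted p under 0.05. DESeq2 called 16, 0 and 0 genes at an adjusted p under 0.05, and the likelihood ratio test of edgeR called 13, 0 and 0. No member passed the adjustment under any test or setting run.

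Of the 7 measurable receptor genes, 1 was called in each comparison. *Oprl1* was higher in bPYX+GFP than in naïve rats, and *Oprm1* was lower in bPYX+NT3 rats than in either other group. Among 7 genes a count of 1 is the smallest above 0, so that it is not read as a result about the group against these backgrounds. The lowest adjusted p among the members was 0.9998, 0.607 and 0.851 in the order of comparisons above. The differences of members and of called pathway genes are also given with a two-sided exact permutation test on log2 CPM (read counts scaled to library size), in which *Oprl1* had p = 0.0238 in the GFP-naïve comparison and 0 of 7 members fell under 0.05 in either other comparison. For no member did the groups separate without overlap. No share over all genes is given for the exact test or for overlap. These counts are therefore not read as a result about the members. The median log2 fold change of the 7 genes was 0.21 in the GFP-naïve comparison, -0.01 in the NT3-naïve comparison and -0.13 in the NT3-GFP comparison, beside medians of 0.01, 0.00 and 0.00 over all genes tested. These comparisons share rats, so that their values are not independent of each other.

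**Figure D1:**
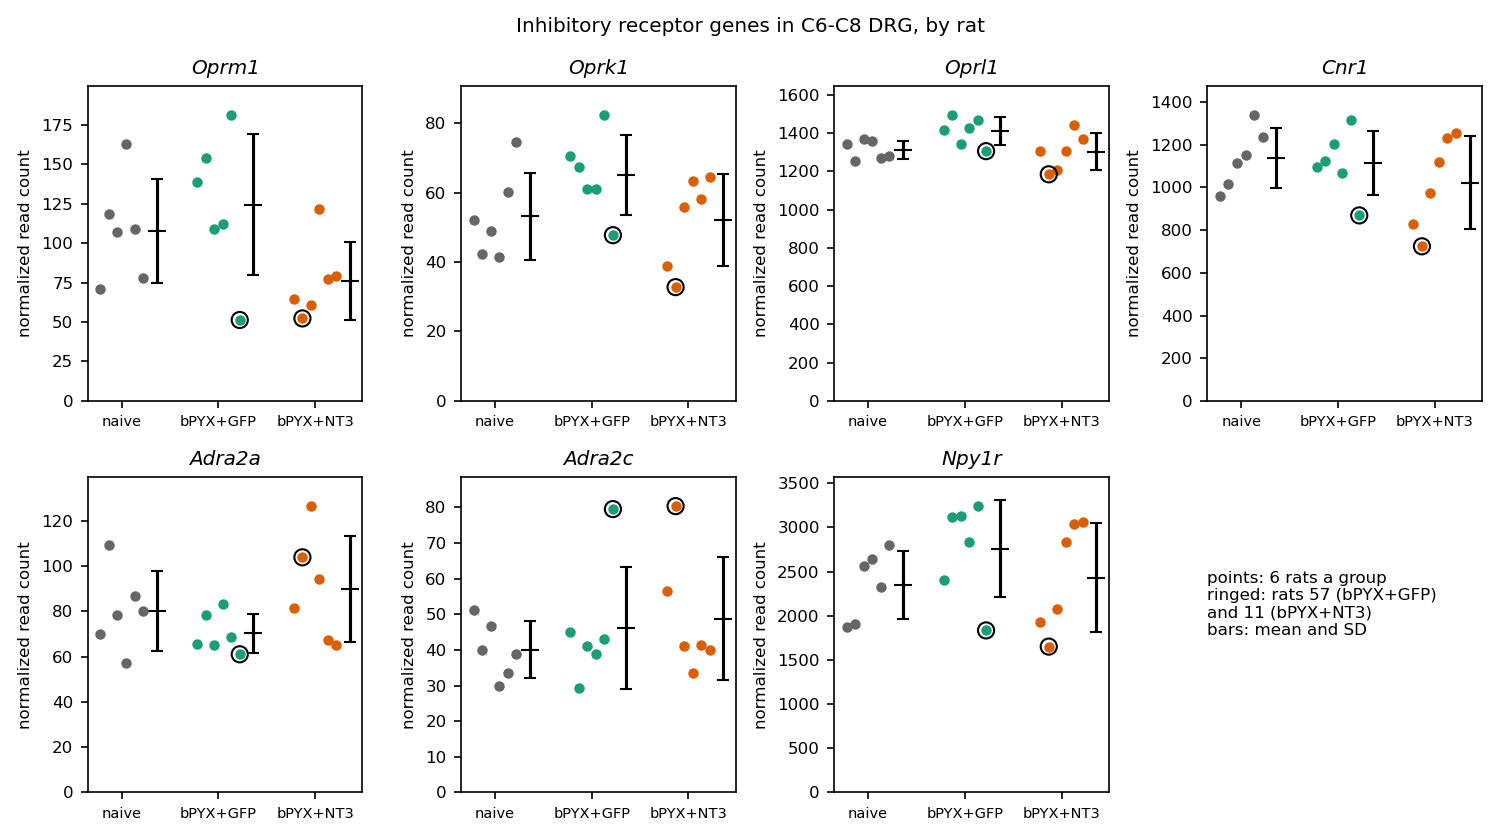
Normalized read counts of the 7 measurable receptor genes (vertical axes, from 0) in the 6 rats of each group, with the mean and SD beside each group and rats 57 and 11 ringed. *Oprm1* lies at 52.3 to 121.7 in bPYX+NT3 rats and at 109.0 to 181.4 in 5 of the 6 bPYX+GFP rats, with rat 57 at 51.3.

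Among the opioid receptors, *Oprm1* (NM_013071), the main target of morphine, showed the widest difference. Its normalized count, which is the read count scaled to a common library size, ran from 70.7 to 163.1 in naïve rats (median 107.7), from 51.3 to 181.4 in bPYX+GFP rats (median 125.4) and from 52.3 to 121.7 in bPYX+NT3 rats (median 70.7). The means were 107.6 ± 33.0, 124.5 ± 44.9 and 75.8 ± 24.6 (SD, n = 6 each). All 6 bPYX+NT3 rats lay below the bPYX+GFP median, but the ranges overlapped because rat 57 had the lowest count of the 18 rats and rat 23 (bPYX+NT3, 121.7) lay inside the range of the bPYX+GFP rats.

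The fold change of *Oprm1* in the NT3-GFP comparison was -0.72 on the log2 scale (SE 0.27), a ratio of 0.608 with a 95% interval of 0.408 to 0.907. It was called by edgeR's quasi-likelihood test at p = 0.0184 (adjusted p = 0.851), and a two-sided exact permutation test gave p = 0.0628, where 6 rats against 6 can reach 0.00216. In the NT3-naïve comparison the log2 change was -0.51 (SE 0.23, ratio 0.704), with p = 0.0444 in edgeR (adjusted p = 0.607) and p = 0.0779 in the exact permutation test. In the GFP-naïve comparison the log2 difference was 0.21 (SE 0.26, exact permutation p = 0.626).

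The call in the NT3-GFP comparison was lost without rat 52 (-0.58) and held without any other rat. It also held without rats 11 and 57, at -0.80, and with the no-feature percentage as a covariate, at -0.46. The call in the NT3-naïve comparison was lost in 9 of 12 fits that left out 1 rat (42, 43, 44, 45, 2, 11, 17, 39 or 40), and its log2 change ran from -0.69 without rat 23 to -0.35 without rat 44. It was also lost with the covariate (-0.37) and in 1 fit over the 3 groups (-0.51). Rat 57 is not in this comparison, so leaving out rats 11 and 57 repeated the fit without rat 11 (-0.42). In bulk ganglia, fewer cells that express a gene and less RNA per cell cannot be told apart.

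**Figure D2:**
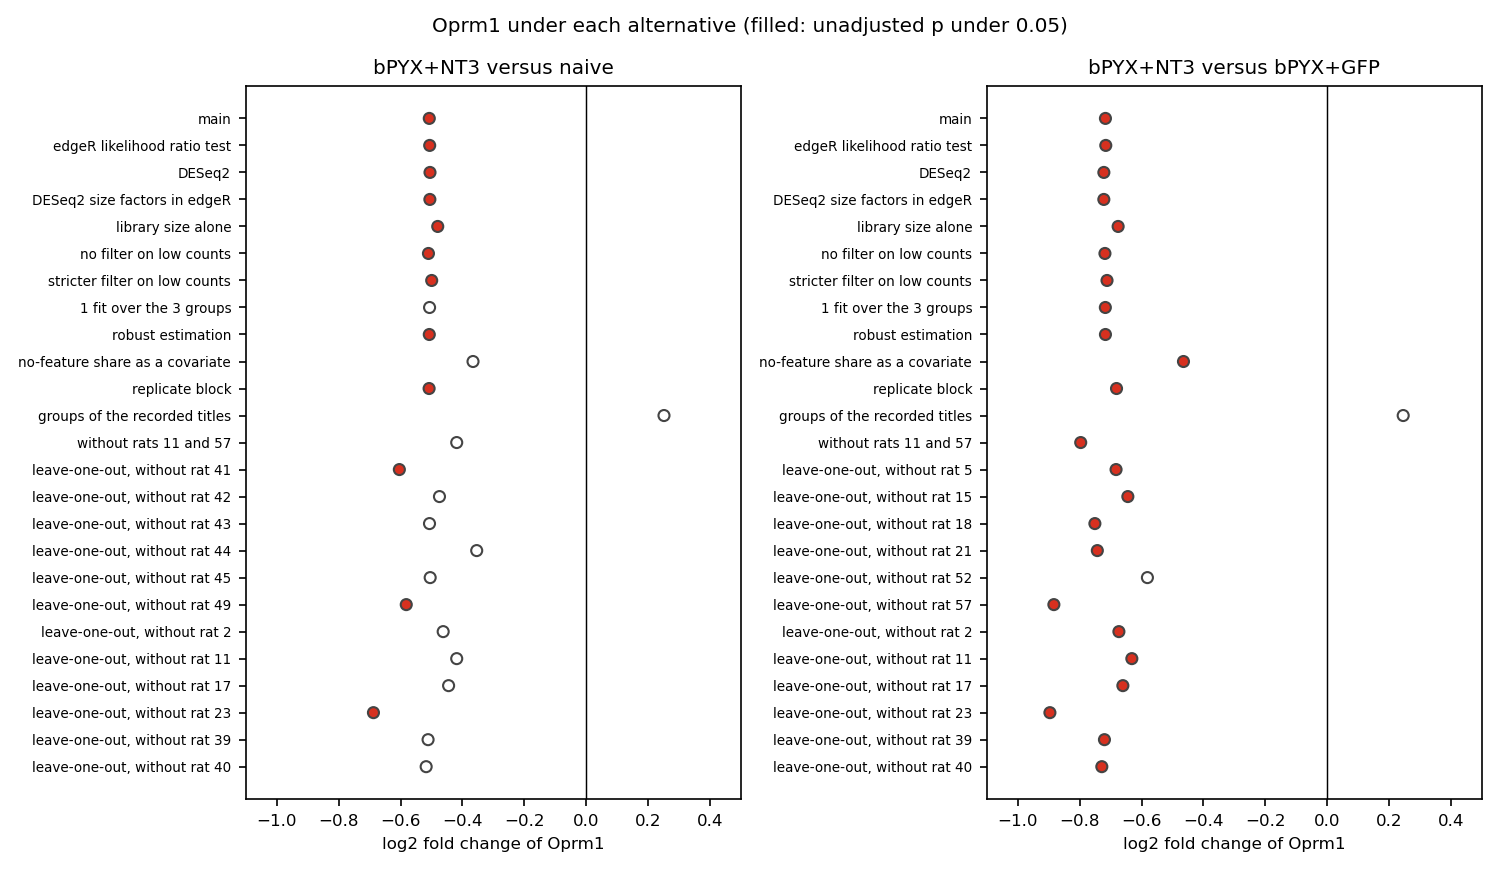
Log2 fold change of *Oprm1* (horizontal axis) in bPYX+NT3 rats against naïve rats (left) and bPYX+GFP rats (right) under each processing choice (vertical axis), filled where the unadjusted p was under 0.05. Most points on the right are filled at -0.90 to -0.46, and most leave-one-out points on the left are open. The groups of the titles put both comparisons at 0.25.

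Other *Oprm1* transcripts were almost absent from the counts. NM_001038597 had 0 or 1 read per rat (2 in all 18 rats) and NM_001038599 had 0 or 1 (6 in all), against 58 to 154 reads for NM_013071. Reads were assigned per RefSeq identifier, and pairs that fitted several identifiers were left uncounted (2.79% to 3.41% of pairs per rat were ambiguous), so the *Oprm1* counts are uncertain wherever transcripts share exons, and the division between transcripts was not tested.

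*Oprk1* (NM_017167), which encodes the kappa receptor for dynorphins, had 41.4 to 74.5 normalized counts in naïve rats (median 50.5), 47.7 to 82.4 in bPYX+GFP rats (median 64.2) and 32.8 to 64.4 in bPYX+NT3 rats (median 57.03). The 3 ranges overlapped widely, and 5 of 6 bPYX+GFP rats lay above the naïve median. Its log2 difference was 0.29 (SE 0.17, exact permutation p = 0.108) in the GFP-naïve comparison and -0.32 (SE 0.19, exact permutation p = 0.126) in the NT3-GFP comparison. The first difference had a 95% interval of 0.949 to 1.58 as a ratio. It was called without rat 57 (0.36), without rat 49 (0.41) and with the no-feature percentage as a covariate (0.31). In the NT3-naïve comparison it was -0.03 (SE 0.20, exact permutation p = 0.853).

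*Oprl1* (NM_031569), which encodes the receptor for nociceptin, varied little between rats. Its normalized count was 1256 to 1369 in naïve rats (median 1311), 1306 to 1497 in bPYX+GFP rats (median 1423) and 1185 to 1445 in bPYX+NT3 rats (median 1307). In 4 of 6 bPYX+GFP rats it exceeded every naïve rat. The mean was 1312 ± 49 in naïve and 1410 ± 73.1 in bPYX+GFP rats (SD, n = 6 each), a log2 change of 0.11 (SE 0.05) and a ratio of 1.08 with a 95% interval of 1.00 to 1.16. It was called by edgeR at p = 0.0391 (adjusted p = 0.9998), and the two-sided exact permutation test gave p = 0.0238.

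The *Oprl1* call held without rat 57 (0.13), with the no-feature percentage as a covariate (0.11) and in DESeq2 (0.12). It was lost in the likelihood ratio test (0.11), without a filter on low counts (0.11), under the groups of the titles (0.03) and without any 1 of rats 41, 42, 45, 49, 5, 15, 21 and 52 (0.09 to 0.11). In the NT3-GFP comparison *Oprl1* differed by -0.12 (SE 0.06, exact permutation p = 0.0649), and in the NT3-naïve comparison by -0.01 (SE 0.06, exact permutation p = 0.810). The first of these was called in 1 fit over the 3 groups (-0.12) and without rat 57 (-0.13) or rat 39 (-0.14).

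*Oprd1* (NM_012617), the delta receptor that binds enkephalins, had 0 to 10 reads per rat and 68 reads over the 18 rats. The mean normalized count was 3.65 ± 1.83 for naïve, 3.45 ± 3.36 for bPYX+GFP and 3.85 ± 1.81 for bPYX+NT3 rats (SD, n = 6 each), and no difference was detectable at this depth.

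**Figure D3:**
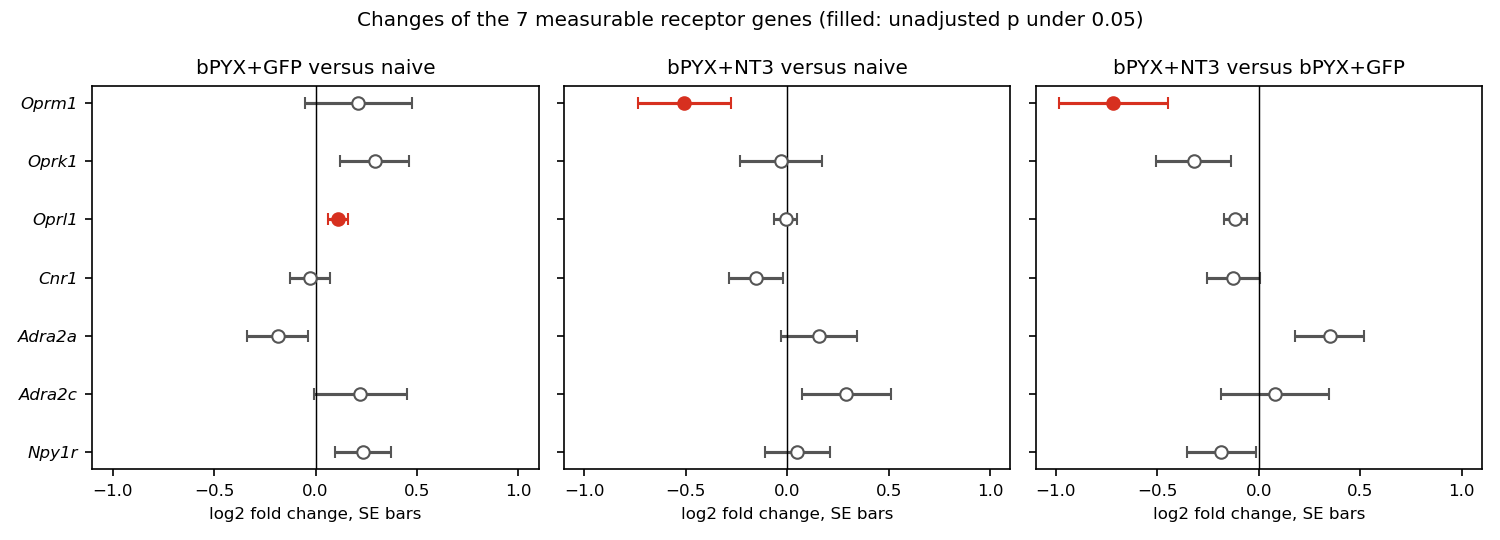
Log2 fold change of the 7 measurable receptor genes (points) with its standard error (bars) in the 3 comparisons, filled where the unadjusted p was under 0.05. *Oprm1* lies at -0.51 and -0.72 in the comparisons of bPYX+NT3 rats, and the other filled point is *Oprl1* at 0.11 in the GFP-naïve comparison.

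*Cnr1* (NM_012784), the receptor of endocannabinoids and of tetrahydrocannabinol, had 962.1 to 1341 normalized counts in naïve rats (median 1133), 868.9 to 1318 in bPYX+GFP rats (median 1109) and 724.2 to 1257 in bPYX+NT3 rats (median 1046). The lowest rats of the injured groups were rats 57 and 11, and the groups overlapped over most of their range. Its log2 difference was -0.03 (SE 0.10, exact permutation p = 0.766) in the GFP-naïve comparison, -0.15 (SE 0.13, exact permutation p = 0.283) in the NT3-naïve comparison and -0.13 (SE 0.13, exact permutation p = 0.374) in the NT3-GFP comparison. The 95% interval of the first ratio was 0.849 to 1.14.

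The α2-adrenergic receptor genes differed from each other in their pattern over the rats. *Adra2a* (NM_012739), a target of clonidine, had 56.9 to 109.1 normalized counts in naïve rats (median 79.2), 61.0 to 83.3 in bPYX+GFP rats (median 67.0) and 65.3 to 126.4 in bPYX+NT3 rats (median 87.8). In 3 of 6 bPYX+NT3 rats (11, 17 and 23) it exceeded every bPYX+GFP rat. The log2 difference between these groups was 0.35 (SE 0.17, ratio 1.27 with a 95% interval of 0.988 to 1.64), and the exact permutation test gave p = 0.0866. It was called when library size alone was used for scaling (0.39) and without rat 21, 39 or 40 (0.41, 0.42 and 0.43), and not without rats 11 and 57 (0.26). Against naïve rats it was -0.19 (SE 0.15, exact permutation p = 0.277) in bPYX+GFP rats and 0.16 (SE 0.19, exact permutation p = 0.459) in bPYX+NT3 rats.

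*Adra2c* (NM_138506), a related α2 receptor, had 29.8 to 51.2 normalized counts in naïve rats (median 39.4), 29.3 to 79.5 in bPYX+GFP rats (median 42.2) and 33.4 to 80.4 in bPYX+NT3 rats (median 41.3). Rat 57 (79.5) and rat 11 (80.4) were far above the other 16 rats, which lay between 29.3 and 56.5. The log2 difference was 0.22 (SE 0.23, exact permutation p = 0.539) in the GFP-naïve comparison, 0.29 (SE 0.22, exact permutation p = 0.312) in the NT3-naïve comparison and 0.08 (SE 0.27, exact permutation p = 0.740) in the NT3-GFP comparison. Without rats 11 and 57 these values were -0.03, 0.09 and 0.12, and the gene was called in none.

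*Sstr2* (NM_019348), a somatostatin receptor, had 0 to 11 reads per rat and 124 reads over the 18 rats. The mean normalized count was 6.36 ± 2.07 for naïve, 6.37 ± 3.44 for bPYX+GFP and 7.53 ± 1.46 for bPYX+NT3 rats (SD, n = 6 each), and no difference was detectable at this depth.

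*Npy1r* (NM_001113357), the Y1 receptor on peptidergic sensory neurons, had 1878 to 2796 normalized counts in naïve rats (median 2441), 1834 to 3241 in bPYX+GFP rats (median 2977) and 1651 to 3061 in bPYX+NT3 rats (median 2456). In 4 of 6 bPYX+GFP rats and 3 of 6 bPYX+NT3 rats it exceeded every naïve rat, while rat 57 and rat 11 lay below every naïve rat. The log2 difference was 0.23 (SE 0.14, ratio 1.18 with a 95% interval of 0.959 to 1.44, exact permutation p = 0.199) in the GFP-naïve comparison. It was called without rat 57 (0.33) and with the no-feature percentage as a covariate (0.25), although the adjustment over all genes left no member. It was 0.05 (SE 0.16, exact permutation p = 0.898) in the NT3-naïve comparison and -0.18 (SE 0.17, exact permutation p = 0.348) in the NT3-GFP comparison.

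Several members varied together from rat to rat, and with the no-feature share of the library. Across 18 rats, *Cnr1* and *Npy1r* had a Pearson r of 0.834 with each other (Spearman rho 0.752), and *Oprm1* had an r of 0.637 with *Cnr1* and 0.629 with *Npy1r*. *Adra2c* ran the other way, with an r of -0.757 with *Cnr1* and -0.725 with *Oprm1*. *Adra2a* had an r between -0.635 (*Oprl1*) and 0.0228 (*Adra2c*) with the other members. These are descriptions over rats that share the same libraries. How many of all genes vary in this way, or with the no-feature share, is not given here. The pattern is therefore not read as particular to these receptors.

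The no-feature share rose with *Cnr1* (r = 0.834, rho = 0.738, permutation p = 6e-05, adjusted over 14 relations 0.00049), *Npy1r* (r = 0.764, rho = 0.664, permutation p = 7e-05, adjusted 0.00049), *Oprm1* (r = 0.685, rho = 0.616, permutation p = 0.00113, adjusted 0.00396) and *Oprk1* (r = 0.684, rho = 0.620, permutation p = 0.00161, adjusted 0.00451). It fell with *Adra2c* (r = -0.818, rho = -0.604, permutation p = 0.00016, adjusted 0.000747). The relations of *Oprl1* (r = 0.434, rho = 0.255, permutation p = 0.0724, adjusted 0.139) and *Adra2a* (r = -0.215, rho = -0.148, permutation p = 0.391, adjusted 0.471) did not pass. The permutation p values of rho were 0.00081, 0.00351, 0.00752, 0.00718 and 0.00937 for *Cnr1*, *Npy1r*, *Oprm1*, *Oprk1* and *Adra2c*, and 0.304 and 0.555 for *Oprl1* and *Adra2a*.

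Within groups the r of these 5 genes was 0.816, 0.817, 0.656, 0.725 and -0.818 in the order *Cnr1*, *Npy1r*, *Oprm1*, *Oprk1* and *Adra2c*. Without rats 11 and 57, the farthest from the median share, the r over all rats was 0.650, 0.621, 0.481, 0.510 and -0.500 in the same order, so that part of each relation rested on these rats. The part of the no-feature share in the group differences of these genes is given by the fits with it as a covariate and was not tested further.

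**Figure D4:**
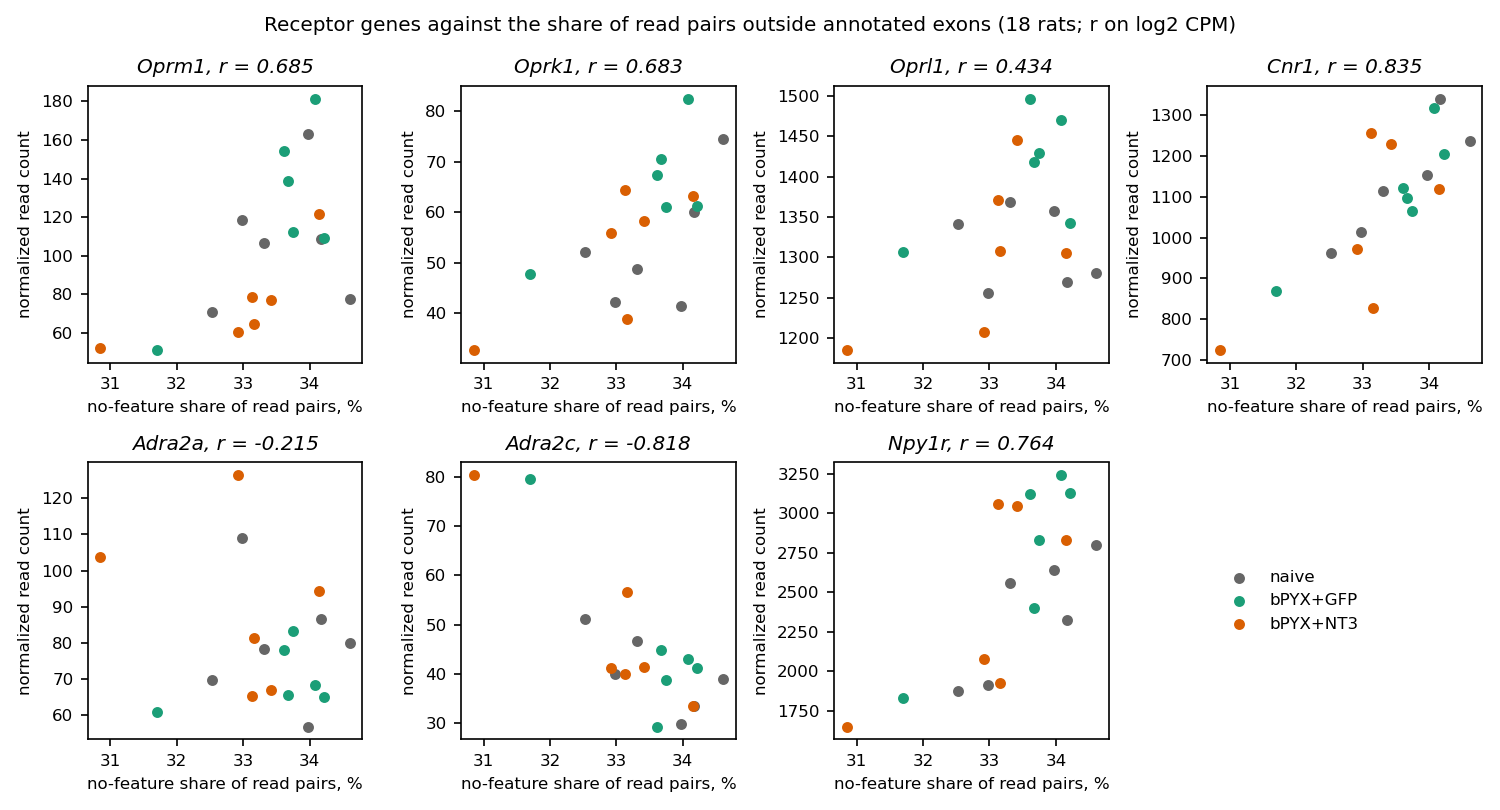
Normalized read counts of the 7 measurable receptor genes (vertical axes, not from 0) against the percentage of read pairs outside annotated exons (horizontal axes) in 18 rats, coloured by group. Rats 11 and 57 lie at 30.8% and 31.7%, where *Npy1r* and *Oprm1* are lowest and *Adra2c* is highest; for *Cnr1* rat 11 is lowest, and rat 2 (bPYX+NT3, 827.7) lies below rat 57 (868.9).

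The mean of the nociceptor markers on the log2 CPM scale did not rise with any opioid receptor gene. Its r was -0.423 with *Oprm1* (rho = -0.379, permutation p = 0.0796, adjusted 0.139), and of the 7 members only *Adra2c* passed by Pearson's r (r = 0.574, permutation p = 0.0118, adjusted 0.0276). That relation did not pass by rank (rho = 0.422, permutation p = 0.0826) or within groups (r = 0.533, permutation p = 0.0452, adjusted 0.105), and its r was 0.444 without rats 57 and 49.

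The genes whose log2 CPM followed the members most closely over the 18 rats, among 11543 genes, were *Kcnh7* (r = 0.961) and *Myo9a* (0.951) for *Oprm1*, *Acbd5* (0.939) and *Cisd2* (0.936) for *Cnr1*, and *Ggnbp2* (0.946) and *Galnt13* (0.936) for *Npy1r*. For *Adra2c* they were *Tubb4a* (0.957) and *Clec2l* (0.951). Values were lower for *Oprk1* (*Tex15*, 0.884, and *Papolb*, 0.876), *Oprl1* (*Pcyox1*, 0.826) and *Adra2a* (*Plau*, 0.844, and *Nuak2*, 0.834). Within groups the r of *Oprm1* with *Kcnh7* was 0.951.

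The promoters of *Oprm1* and *Npy1r*, which varied together over the rats, and of *Adra2c*, which ran the other way, are shown to put their sequences beside that pattern. RefSeq promoters (250 bases before to 50 after a transcription start, build GRCr8) were found for 6 of the 9 members, and the counts themselves were made on Rnor_6.0. None was found for *Cnr1* and *Oprk1*, which also followed the no-feature share, or for *Oprl1*. *Oprm1* has 2 starts there, and the start that the counted transcript uses was not tested. Capitals mark GC boxes (GGGCGG, or CCGCCC on the other strand), the site of Sp1-type factors.
Oprm1, upstream start, chr1:45565121-45565420, + strand: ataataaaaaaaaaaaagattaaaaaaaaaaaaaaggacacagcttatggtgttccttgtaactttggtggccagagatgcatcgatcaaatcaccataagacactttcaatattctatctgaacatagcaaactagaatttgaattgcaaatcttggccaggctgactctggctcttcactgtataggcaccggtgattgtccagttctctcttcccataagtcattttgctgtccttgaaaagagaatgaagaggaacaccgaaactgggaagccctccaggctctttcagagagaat
Oprm1, downstream start, chr1:45585733-45586032, + strand: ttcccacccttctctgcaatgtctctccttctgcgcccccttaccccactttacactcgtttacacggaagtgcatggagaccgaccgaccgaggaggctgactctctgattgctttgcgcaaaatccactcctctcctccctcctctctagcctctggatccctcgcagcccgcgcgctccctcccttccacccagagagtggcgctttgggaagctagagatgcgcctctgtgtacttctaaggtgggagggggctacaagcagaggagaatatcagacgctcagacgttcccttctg
Npy1r, chr16:27813338-27813637, - strand: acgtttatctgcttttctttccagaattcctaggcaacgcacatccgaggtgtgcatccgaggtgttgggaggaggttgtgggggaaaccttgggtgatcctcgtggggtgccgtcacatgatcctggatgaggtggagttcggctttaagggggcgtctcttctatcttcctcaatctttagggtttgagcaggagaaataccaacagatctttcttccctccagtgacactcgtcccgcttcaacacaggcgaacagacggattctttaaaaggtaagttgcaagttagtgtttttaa
Adra2c, chr14:79697427-79697726, - strand: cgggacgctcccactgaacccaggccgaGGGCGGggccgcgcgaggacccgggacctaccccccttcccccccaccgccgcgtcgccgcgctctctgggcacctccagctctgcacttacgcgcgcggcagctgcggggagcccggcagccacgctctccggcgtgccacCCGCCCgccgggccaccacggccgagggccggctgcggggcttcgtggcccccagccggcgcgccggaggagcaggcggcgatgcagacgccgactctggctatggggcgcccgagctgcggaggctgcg

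G and C made up 39% and 57.7% of the *Oprm1* promoters and 49% of the *Npy1r* promoter, against 79.0% of the *Adra2c* promoter, where the median of 33469 promoters was 51.7%. The *Adra2c* promoter had more G and C than 98.8% of them and held 43 CpG dinucleotides, beside 3 and 15 in the *Oprm1* promoters and 12 in that of *Npy1r* (median of all promoters 7). It held 2 GC boxes, and no match was found in the other 3 windows, while 33.1% of all promoters hold at least 1. Neither the TATA box TATAAA (14.2% of all promoters) nor the cAMP response element TGACGTCA (1.83%) was found in the 4 windows, with both strands read for each. The *Adra2a* promoter, whose gene did not follow the no-feature share, was 68.0% G and C. Among the members that were not measurable, the *Oprd1* promoter was also 79.0% G and C and held 4 GC boxes. That of *Sstr2* was 68.7% G and C, with 1 GC box and 1 cAMP response element. Whether promoter sequence has a part in the pattern over the rats was not tested.

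Genes of the pathway around these receptors were called by the same edgeR threshold. Of those called only *Mme*, *Gnb5*, *Adcy3* and *Rgs19* had an exact permutation p under 0.05. The list counts below stand beside 3.25%, 6.01% and 1.73% of all genes called in the GFP-naïve, NT3-naïve and NT3-GFP comparisons. In the NT3-naïve comparison 3.09% of all genes were called higher in bPYX+NT3 rats. No list was tested as a set. Of the other Gi/o-coupled receptors, 0 of 23 tested were called in the GFP-naïve comparison, 2 of 23 in the NT3-naïve comparison and 1 of 24 in the NT3-GFP comparison, each higher in bPYX+NT3 rats. The genes higher than in naïve rats were *Adora1*, the adenosine A1 receptor (108.4 ± 28.1 in naïve and 154.5 ± 53.8 normalized counts in bPYX+NT3 rats, log2 change 0.51, SE 0.22, exact permutation p = 0.0563), and *Grm4*, a metabotropic glutamate receptor (42.3 ± 8.26 and 60.8 ± 23.2, log2 change 0.52, SE 0.23, exact permutation p = 0.0801). *Npy2r*, the Y2 receptor of neuropeptide Y, was higher in bPYX+NT3 than in bPYX+GFP rats (218.9 ± 41.9 and 169.3 ± 33.2, log2 change 0.37, SE 0.16, exact permutation p = 0.0519). The list's gene with the most reads, the GABA-B subunit *Gabbr1*, differed by 0.02 to 0.09 on the log2 scale in the 3 comparisons and was called in none.

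Of 9 tested genes for ligands and for their making or breakdown, *Mme* was lower in both injured groups than in naïve rats. It encodes neprilysin, the peptidase that degrades enkephalins, and its mean was 697.3 ± 83.1 normalized counts for naïve, 538 ± 83.1 for bPYX+GFP and 511 ± 103 for bPYX+NT3 rats (SD, n = 6 each). The log2 changes were -0.37 (SE 0.11, exact permutation p = 0.00866) and -0.45 (SE 0.13, exact permutation p = 0.00216), from the same naïve rats. *Dagla*, which makes the endocannabinoid 2-arachidonoylglycerol, was higher in bPYX+NT3 than in naïve rats (log2 change 0.46, SE 0.17, exact permutation p = 0.0541), and *Mgll*, which degrades it and had the most reads of the list, was called in no comparison. None of the 9 was called in the NT3-GFP comparison. The genes of the opioid precursors *Pomc* and *Pnoc* and of *Npy* had 9 reads or fewer in every rat. The opioid precursor genes *Penk* and *Pdyn* were tested, with means of 41.2 and 17.95 normalized counts over all rats, and were called in no comparison.

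Of 24 tested G protein subunits and effectors, 3 were higher in bPYX+NT3 than in naïve rats and 0 were called in the other comparisons. They were *Gnb5* and *Gng3*, β and γ subunits (log2 changes 0.20 and 0.24, exact permutation p = 0.0260 and 0.0584), and the adenylyl cyclase *Adcy3* (0.33, exact permutation p = 0.0325). *Gnb1*, the list's gene with the most reads, differed by 0.02 to 0.06 and was not called. Of 21 tested regulators of receptor signalling and trafficking, *Rgs16* was higher in bPYX+GFP than in naïve rats (26.8 ± 10.8 and 16.6 ± 5.397 normalized counts, log2 change 0.69, SE 0.30, exact permutation p = 0.0931). *Rgs3* (0.38, exact permutation p = 0.0779) and *Rgs19* (0.27, exact permutation p = 0.00649) were higher in bPYX+NT3 than in naïve rats, and *Rgs4*, with the most reads, was not called. These RGS proteins speed the return of G proteins to their inactive state. None of these list genes passed the adjustment in edgeR, where the list medians lay between -0.01 and 0.11 on the log2 scale. The medians over all genes lay between 0.00 and 0.01.

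**Figure D5:**
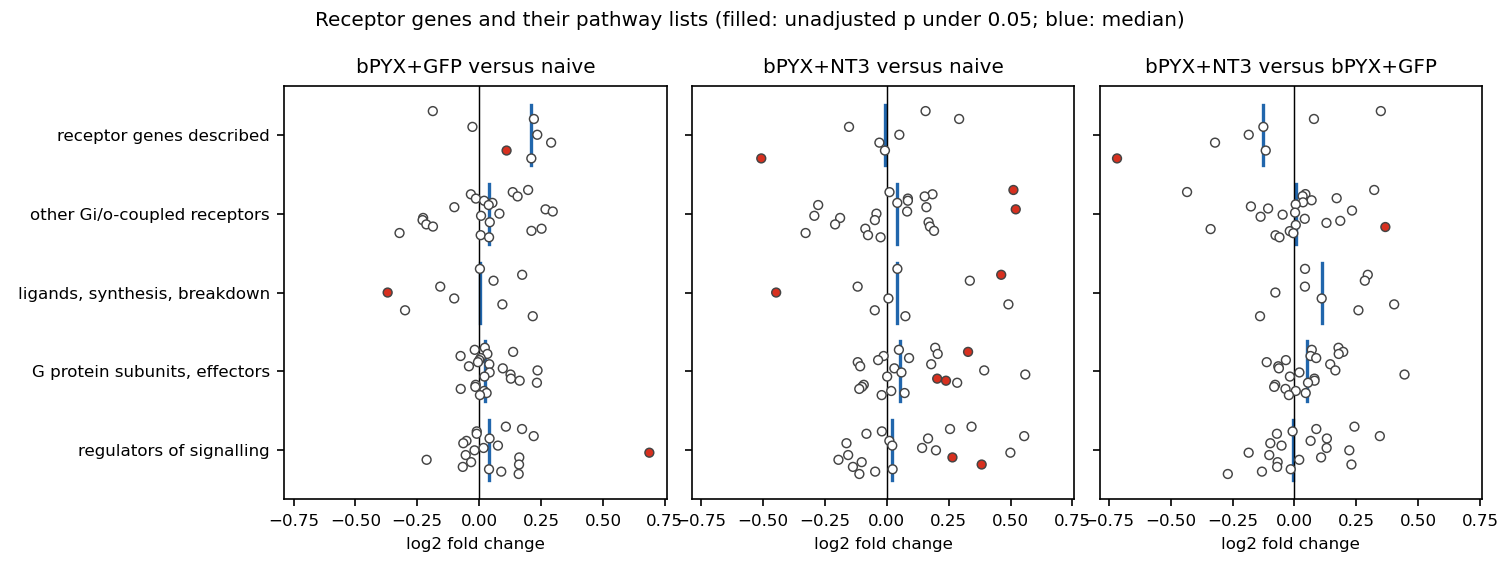
Log2 fold change (horizontal axis) of the 7 measurable receptor genes and of the tested genes of 4 pathway lists, 1 point a gene, filled where the unadjusted p was under 0.05, with the list median in blue. The list medians stay between -0.01 and 0.11, the receptor genes' medians between -0.13 and 0.21, and *Oprm1* is the lowest point of the 2 comparisons of bPYX+NT3 rats.

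Markers of other cells of the ganglion were also called. In the NT3-GFP comparison, where the *Oprm1* difference was widest, the adipocyte marker *Adipoq* was lower in bPYX+NT3 rats (24.2 ± 17.9 and 104.9 ± 100.3 normalized counts, log2 change -2.11, SE 0.73, exact permutation p = 0.130). The satellite glia marker *Kcnj10* (log2 change 0.42, SE 0.15, exact permutation p = 0.0238) and the smooth muscle marker *Acta2* (0.56, SE 0.26, exact permutation p = 0.102) were higher. In the comparisons with naïve rats the Schwann cell list (6 tested) had 1 gene lower in bPYX+GFP and 2 lower in bPYX+NT3 rats, the fibroblast list (4 tested) 2 lower in each, and the endothelium list (5 tested) 2 higher in bPYX+NT3 rats. Of the 4 tested genes of the satellite glia list, only *Cx3cl1* was called higher in bPYX+NT3 than in naïve rats (log2 change 0.63, SE 0.28, exact permutation p = 0.126). *Adipoq* and 1 spinal cord marker were lower in bPYX+NT3 than in naïve rats. Summed normalized counts of the Schwann cell markers were 46030 to 63500 for naïve, 40550 to 51630 for bPYX+GFP and 45070 to 50540 for bPYX+NT3 rats. The part of these markers in the receptor genes' values was not tested.

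Without rats 11 and 57 the calls in these lists shifted, as did those over all genes, which went from 377 to 595 in the GFP-naïve comparison, from 703 to 365 in the NT3-naïve comparison and from 201 to 1462 in the NT3-GFP comparison. In the GFP-naïve comparison, 4 of 6 Schwann cell markers (5 of 6 with the no-feature percentage as a covariate), 1 of 4 fibroblast markers and 3 of 9 ligand genes were then called lower, and 2 of 22 other Gi/o-coupled receptors higher. In the NT3-naïve comparison the other Gi/o-coupled receptors went from 2 to 0, the G protein and effector list from 3 to 1, the endothelium list from 2 to 1 and the fibroblast list from 2 to 1. In the NT3-GFP comparison, the G protein and effector list went from 0 to 4 genes called higher of 24, the nociceptor markers from 0 to 3 higher and 1 lower of 7, the Schwann cell markers from 0 to 2 higher of 6 and the smooth muscle markers from 1 to 3 higher of 4.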

How the data were processed

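Poly(A) RNA of the C6-C8 DRG was sequenced as 50 bp read pairs in 18 rats. Base calls were converted with bcl2fastq 1.8.4 and aligned by the authors with TopHat2 on Rnor_6.0. Picard removed duplicates, and HTSeq gave the whole-number counts per RefSeq identifier that the authors deposited without normalization. The kit marks strand, and the strand setting of the counting is not given in the sources used here. The HTSeq lines without a gene (no-feature 30.8% to 34.6%, mapping to several locations 19.0% to 22.2%) entered neither library sizes nor tests. Columns were matched to samples by the numbers in the heading. Of 15075 rows, 14193 matched 1 symbol in RefSeq.

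The members, lists and rules were chosen with earlier results of these data known. The relations with the no-feature share and the fits without rats 11 and 57 were chosen after seeing the data.

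A gene was tested if over 10 reads were counted in 6 or more of the 12 rats compared. The main test used edgeR 4.0.16 in R 4.3.3 (TMM, estimateDisp, glmQLFit, glmQLFTest, 2 groups per fit, no covariate, two-sided) with Benjamini-Hochberg adjustment over all genes. Normalized counts are counts divided by the TMM library size and multiplied by its mean over the 18 rats. Single members and called list genes were compared on log2 CPM with a prior count of 2 (exact permutation tests), and correlations by 100000 permutations. Intervals of 95% use the fit's standard error and degrees of freedom.

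The genes named are the 9 members, the list genes called in a comparison, the gene of each pathway list with the highest mean, and the 2 genes most correlated with each measurable member, of which 1 is not reported here. Levels were not compared between genes, because transcript lengths were not used here. The alternatives tried were DESeq2 1.42.0, the likelihood ratio test of edgeR, other scalings and filters, 1 fit over the 3 groups, robust estimation, the no-feature share as a covariate, a replicate block, the groups of the titles and leaving out each rat. The fits were tested on simulated data. Other steps ran in Python 3.11.15 (numpy 2.4.6, pandas 2.3.3, matplotlib 3.10.9, scipy 1.17.1).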

Additional observations from a re-analysis of the deposited data

Results flagged for a closer look

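*Adra2c* in bPYX+GFP rats stood out because 1 rat lay far from the other 5. Rat 57 had 79.5 normalized counts against 29.3 to 44.9 in the others, a gap of 0.689 of the group's range, above the 95% limit of Dixon's test for 6 samples. Of 21 groups of member values examined, 1 was flagged, where chance flags about 1 in 20. The same rat had the second lowest no-feature share of the 18 rats, and rat 11 (bPYX+NT3), with the lowest, had 80.4.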

How the results depend on the processing

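The fit without rats 11 and 57 is the fit without rat 57 in the GFP-naïve comparison and without rat 11 in the NT3-naïve comparison. The count of members called (1 of 7 in each comparison) was unsteady. In the GFP-naïve comparison it was 0 in the likelihood ratio test, without a filter on low counts, with the replicate block and under the groups of the titles, and 3 with the no-feature percentage as a covariate or without rats 11 and 57. In the NT3-naïve comparison it was 0 in 1 fit over the 3 groups, with the covariate, under the groups of the titles and without rats 11 and 57, and 2 with the replicate block. In the NT3-GFP comparison it was 2 with library size alone and in 1 fit over the 3 groups, and 0 under the groups of the titles. Leaving out 1 rat gave 0 to 3, 0 to 1 and 0 to 3 members in the same order, with 3 without rat 57 in the first and without rat 39 in the last. The count over all genes in the NT3-GFP comparison went from 201 to 2291 without rat 57 and to 95 without rat 11, and in the GFP-naïve comparison from 377 to 848 with the covariate and to 595 without rat 57.

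The replicate numbers, taken from the titles found by the sample numbers of the headings, did not pair the rats throughout. Over 18 pairs of same-numbered rats, r ran from -0.432 to 0.552 and was over 0.1 in 10. Between naïve and bPYX+NT3 rats r was 0.36, 0.55, 0.50, 0.30 and 0.41 for numbers 1, 2, 4, 5 and 6, and -0.31 for number 3. It ran from -0.37 to 0.33 between naïve and bPYX+GFP rats, and from -0.43 to 0.53 between the injured groups. The best-correlated rat was also searched for each naïve rat in both other groups and for each bPYX+GFP rat among bPYX+NT3 rats. In 4 of these 18 searches it had the same number. With the replicate block, 316, 2962 and 130 genes were called in the 3 comparisons in place of 377, 703 and 201, the call of *Oprl1* in the GFP-naïve comparison was lost (0.11), and *Cnr1* was called in the NT3-naïve comparison (-0.17).

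Under the groups of the titles, log2 differences changed sign in the GFP-naïve comparison for *Cnr1* (0.16) and *Adra2c* (-0.29), in the NT3-naïve comparison for *Oprm1* (0.25), *Oprk1* (0.13), *Oprl1* (0.016), *Cnr1* (0.24), *Adra2a* (-0.28) and *Adra2c* (-0.11), and in the NT3-GFP comparison for *Oprm1* (0.25), *Oprk1* (0.063), *Cnr1* (0.086) and *Adra2a* (-0.17). Without rats 11 and 57 they changed sign for *Cnr1* (0.031) and *Adra2c* (-0.028) in the GFP-naïve comparison and for *Oprk1* (0.076) and *Oprl1* (0.019) in the NT3-naïve comparison. With the covariate they did so for *Oprk1* (0.14) and *Oprl1* (0.015) in the NT3-naïve comparison and *Adra2c* (-0.15) in the NT3-GFP comparison. *Oprl1* was 0.022 with library size alone and 0.0022 with the stricter filter in the NT3-naïve comparison. Leaving out 1 rat changed the sign of *Cnr1* (range -0.081 to 0.031) and *Adra2c* (-0.028 to 0.32) in the GFP-naïve comparison, of *Npy1r* (-0.025 to 0.14), *Oprl1* (-0.035 to 0.023) and *Oprk1* (-0.10 to 0.089) in the NT3-naïve comparison, and of *Adra2c* (-0.13 to 0.32) in the NT3-GFP comparison. The cause was not tested. Depth limits the genes near 10 reads, and the 2 unmeasurable members could not be compared.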
